A study of Mus musculus with 5 samples.

Results

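Granule proteases of mast cells, basophils and cytotoxic lymphocytes were examined in the lungs of 5 C3H mice, an inbred strain, after sensitisation and challenge with ovalbumin (ova mice), against a pool of control C3H lungs. Amplified lung RNA of every ova mouse shared a 2-colour array with amplified RNA of that pool, which gave 5 arrays and 1 control sample. The genes were those annotated with a symbol beginning with Mcpt and a digit, with Gzm and a single letter, or with Tps, together with Cpa3, Cma1 and Prf1, each from probes naming only that gene. Of 17 such genes on the array, 15 had a value on at least 4 of 5 arrays, out of 9727 genes that met the same requirement. The letters Tps also matched Tpst1 and Tpst2, which encode Golgi enzymes that add sulfate to tyrosine and are no granule proteases. The measured proteases were thus 7 of mast cells and basophils and 5 granzymes, to which perforin (Prf1) adds 1. Each had 1 probe. The number of mice in the pool, the days of sensitisation and challenge, the sex and age of the mice and the dyes were not stated in the labels.

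Mast cells store chymases, tryptases and carboxypeptidase A3 in granules on the proteoglycan serglycin and release them when antigen cross-links IgE on the high-affinity IgE receptor. Basophils carry the same receptor, and in mice they express the serine protease encoded by Mcpt8, which serves as a marker of basophils. Cytotoxic T cells and natural killer (NK) cells store granzymes, serine proteases of the same family, beside the pore-forming protein perforin, which lets granzymes into target cells. In ovalbumin models of airway inflammation, mast cells and basophils are known as sources of mediators and of type 2 cytokines.

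Each deposited value is a log ratio of an ova mouse and the pool, taken here as log2 and centred on the array's median. The base is not stated. A natural logarithm would leave every test as it is and make every fold larger. The numerator of the ratio is not stated, so genes are described by the negative or the positive side of the ratio and not as higher or lower in ova lungs. For orientation, Retnla, Clca1 and Arg1, genes known to rise in allergic airways, had means of -4.79, -4.33 and -3.48. In the titles the pool comes after the ova mouse, and a ratio formed in that order would be negative where ova lungs had less. That order runs against the known rise of Retnla, Clca1 and Arg1. Their side, the negative one, is also that of Mcpt8, Gzma and Tpsg1 below. Each array gave values for 11778 to 13320 of 17280 probes. Across probes, Pearson's r was 0.64 to 0.83 for the 10 pairs of arrays, so the arrays ran the same way. All arrays share the 1 pool, however, so any deviation of the pool enters every ratio and can raise r. The ratios of mouse 1 were smaller, with an SD over genes of 0.21, against 0.33 to 0.40 in mice 2 to 5. Spot brightness was not available, so that neither the lung identity of the tissue nor the level of any protease could be checked, and a faint probe could be recognised only by a blank. In whole lung, a change in the number of cells of a type cannot be told apart from a change in RNA per cell.

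The sequences upstream of Mcpt8, Gzma and Gzmb are shown because these genes gave the largest negative ratio of the mast cell and basophil proteases, the largest negative ratio of the granzymes and a positive ratio from the same gene cluster as Mcpt8. Each runs from 250 bases before to 50 bases after the annotated start, 5′ to 3′, from RefSeq in build GRCm38.p6, which is a C57BL/6J genome and not C3H. That of Mcpt8 lies at chr14:56085148-56085447, that of Gzma at chr13:113100932-113101231 and that of Gzmb at chr14:56262285-56262584, all on the minus strand. Capitals mark matches to the motifs below.
Mcpt8: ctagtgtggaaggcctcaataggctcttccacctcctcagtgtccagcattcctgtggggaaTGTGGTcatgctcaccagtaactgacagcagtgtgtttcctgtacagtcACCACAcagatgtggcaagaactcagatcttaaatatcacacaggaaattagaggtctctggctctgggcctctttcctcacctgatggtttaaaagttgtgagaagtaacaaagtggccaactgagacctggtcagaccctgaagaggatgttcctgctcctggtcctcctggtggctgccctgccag
Gzma: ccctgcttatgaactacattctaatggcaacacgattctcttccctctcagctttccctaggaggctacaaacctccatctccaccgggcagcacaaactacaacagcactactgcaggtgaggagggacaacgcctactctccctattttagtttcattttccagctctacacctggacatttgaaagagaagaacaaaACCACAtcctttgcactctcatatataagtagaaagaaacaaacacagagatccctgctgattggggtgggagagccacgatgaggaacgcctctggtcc
Gzmb: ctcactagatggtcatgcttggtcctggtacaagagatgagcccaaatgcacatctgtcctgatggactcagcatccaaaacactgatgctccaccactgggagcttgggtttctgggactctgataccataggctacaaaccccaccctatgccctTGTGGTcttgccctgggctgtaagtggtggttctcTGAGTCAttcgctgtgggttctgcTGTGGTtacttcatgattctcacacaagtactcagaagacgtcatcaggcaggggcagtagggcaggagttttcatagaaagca

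These windows were searched on both strands for the GATA words AGATAA or AGATAG and also TGATAA or TGATAG, the RUNX word TGTGGT, the AP-1 word TGANTCA, the ETS word AGGAAG and the TATA word TATAAA. The Mcpt8 window held 2 RUNX words, beginning 188 and 139 bases before the start and lying on opposite strands, and the Gzma window held 1, 50 bases before the start. The Gzmb window held 2 RUNX words and 1 AP-1 word. Across all 32851 promoter windows of this length, 16.8% held the RUNX word and 7.81% the AP-1 word. Of the 14 genes here with a window in the table, 9 had a RUNX word in at least 1 of their windows, 6 a GATA word, 6 the ETS word, 2 the TATA word and 1 the AP-1 word. The GATA words were found in 29.8% of all windows, the ETS word in 35.4% and the TATA word in 13.6%. The 14 genes had 19 windows among them, so their counts per gene cannot be set directly against these shares per window. A match is a description of the letters and not evidence of a bound site.

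Mcpt8, the basophil protease gene, had log2 ratios of -0.83 in mouse 1, -0.68 in mouse 2, -1.78 in mouse 3, -1.51 in mouse 4 and -1.19 in mouse 5. All 5 mice lay on the negative side, mouse 3 furthest from 0 and mouse 2 nearest to it. The mean was -1.20 ± 0.46 (SD, n = 5), a difference of 2.29-fold in size under base 2 (limma adjusted p = 0.00185, interval of 95% from -1.55 to -0.85). By size of mean ratio Mcpt8 ranked 77th of 9727 genes. It lay among the lowest 3.60% of genes on every array, and among the lowest 0.606% in mice 1, 3 and 4. Divided by the SD over genes of its own array, the ratio of mouse 1 was -3.86, beyond the -2.98 of mouse 5 and the -1.81 of mouse 2. Leaving out any mouse kept Mcpt8 past the threshold, with means from -1.32 to -1.05 and limma adjusted p-values from 0.00144 to 0.0102. An ordinary one-sample statistic did not call it (adjusted p = 0.0529; 0.000357 to 0.0529 over its 15 alternatives).

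**Figure D1:**
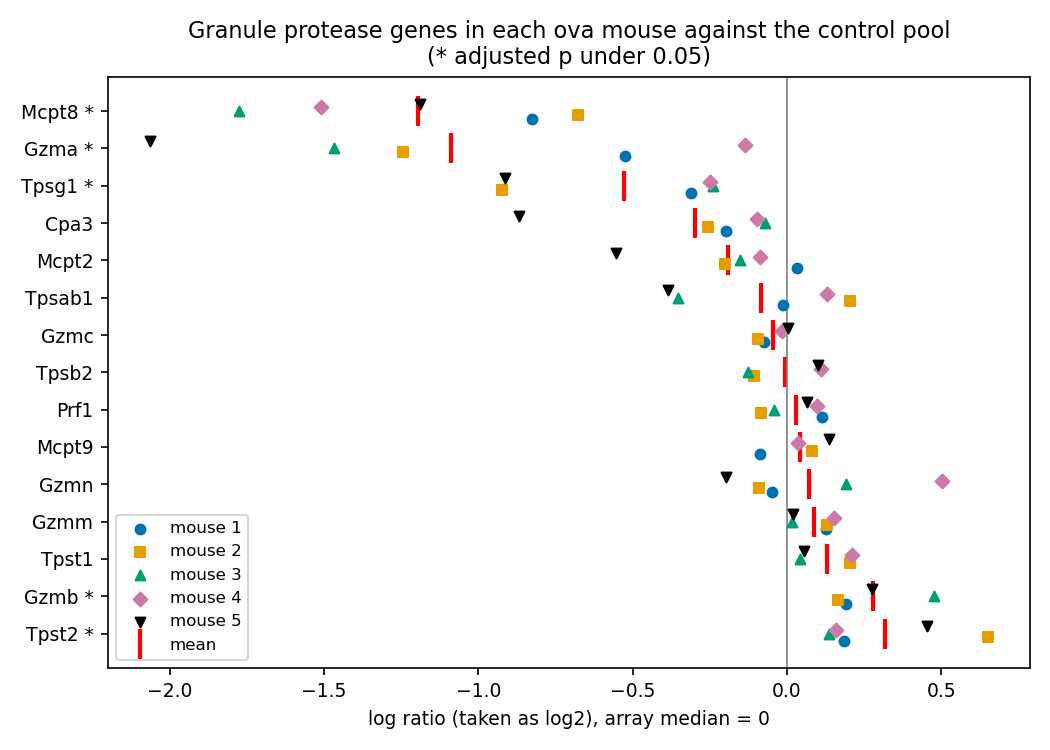
Log2 ratio of each measured gene (rows) in each of the 5 ova mice (symbols) against the control pool, the sulfotransferase genes Tpst1 and Tpst2 included, with the mean over mice as a red bar and an asterisk at an adjusted p under 0.05. Mcpt8 and Gzma reach furthest to the negative side, Gzma spans -2.06 to -0.14, and most other genes lie near 0.

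Gzma encodes granzyme A, a protease of cytotoxic T cells and NK cells that cleaves after basic residues. Its log2 ratios were -0.52 in mouse 1, -1.25 in mouse 2, -1.47 in mouse 3, -0.14 in mouse 4 and -2.06 in mouse 5. Every mouse lay on the negative side, but mouse 4 was close to 0 while mouse 5 differed from the pool 4.18-fold in size. The mean was -1.09 ± 0.77 (SD, n = 5; 2.13-fold in size under base 2; limma adjusted p = 0.0154, interval of 95% from -1.66 to -0.51). Gzma ranked 103rd by size of mean ratio, and 99.9% of genes had an SD between mice no larger than its own. It lay among the lowest 1.58% of genes in mice 1, 2, 3 and 5 and at the 30.3rd percentile in mouse 4. The call was lost without mouse 2 (mean -1.05, limma adjusted p = 0.0507) and without mouse 3 (mean -0.99, adjusted p = 0.0641; 0.00406 to 0.113 over its 15 alternatives).

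The mice did not order alike for these genes. Mouse 4 had the second most negative ratio of Mcpt8 (-1.51) and the least negative ratio of Gzma (-0.14), whereas mouse 5 had the most negative ratio of Gzma and the third most negative of Mcpt8. Mcpt8 minus Gzma on the same array averaged -0.11 ± 0.88 (SD, n = 5), from -1.37 in mouse 4 to 0.88 in mouse 5, and lay below 0 in 3 of 5 mice. An exact two-sided sign-flip permutation test gave p = 0.813, or 0.813 adjusted over the 27 pairs of genes compared. This does not show that the genes responded alike, since the range between mice was wide.

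**Figure D2:**
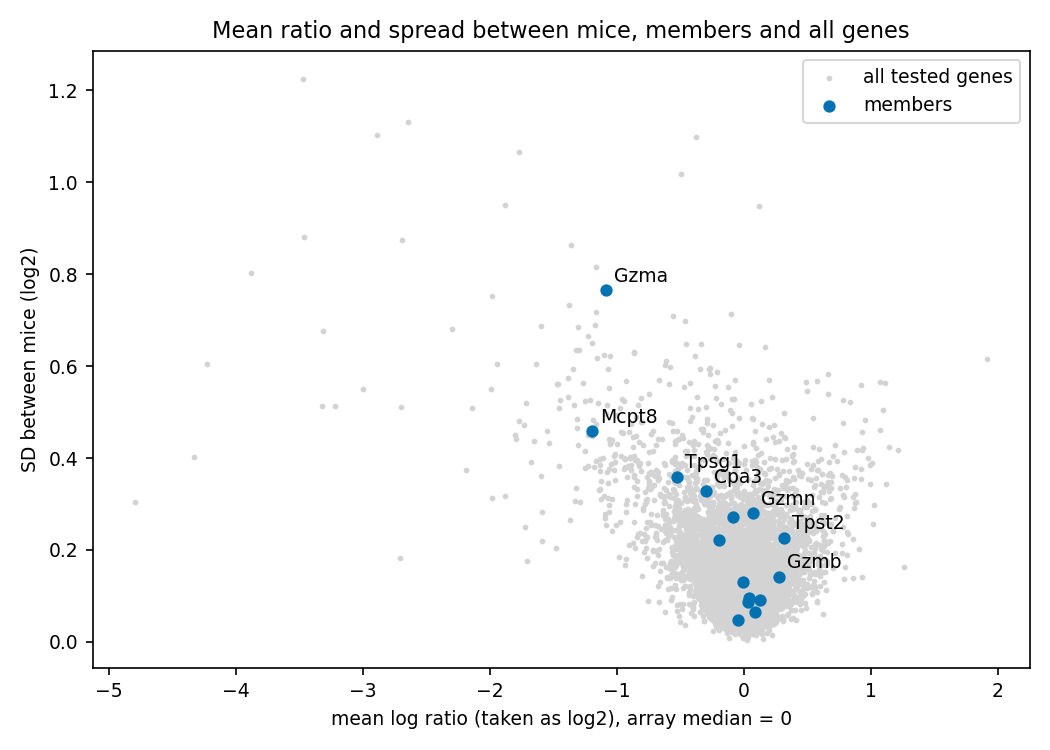
Mean log2 ratio over mice (horizontal axis) and SD between mice (vertical axis) of all 9727 tested genes in grey and of the 15 measured members in blue. Gzma stands out by its SD of 0.77, Mcpt8 has the larger mean at an SD of 0.46, and most of the others lie inside the bulk of all genes.

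Among the remaining mast cell proteases, 1 passed the threshold. Tpsg1 encodes a tryptase held in the membrane, and its log2 ratios were -0.31, -0.92, -0.24, -0.25 and -0.92 in mice 1 to 5. Mice 2 and 5 were far from the other 3, which lay close together. Its mean was -0.53 ± 0.36 (SD, n = 5, limma adjusted p = 0.0161), and the call was lost without mouse 5 (mean -0.43, adjusted p = 0.055; 0.00556 to 0.107 over its 15 alternatives). Probes 24 and 18 numbers below that of Tpsg1, naming Snx5 and Padi1, had means of -0.74 and -0.86. The others at 6, 18 or 24 numbers with a mean had -0.37 (6 above), 0.02 (6 below) and -0.05 (24 above). Across the array, means of probes 6, 18 or 24 numbers apart that did not name the same gene correlated (r = 0.155, 0.108 and 0.107), against -0.0105 to 0.0226 at the other distances up to 30. Whether such neighbours had a part in the ratio of Tpsg1 was not tested. At these 3 distances the probes around Mcpt8 had means between -0.20 and 0.05, and those around Gzma between -0.12 and 0.14.

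Cpa3, the mast cell carboxypeptidase A3 gene, had log2 ratios of -0.20, -0.26, -0.07, -0.10 and -0.87 in mice 1 to 5. Mouse 5 was apart from the others, all 5 lay below 0, and the mean of -0.30 ± 0.33 did not pass (SD, n = 5, limma adjusted p = 0.0846). Without mouse 5 it was -0.16. Mcpt2, a chymase-like gene of mast cells, had 0.03, -0.20, -0.15, -0.09 and -0.55, again with mouse 5 furthest out. Its mean was -0.19 ± 0.22 (limma adjusted p = 0.116), and -0.10 without mouse 5. The tryptase genes Tpsab1 and Tpsb2, whose products make up the tryptase released by mast cells, had means of -0.08 ± 0.27 (n = 5) and -0.01 ± 0.13 (n = 4). Tpsab1 lay on both sides, from -0.39 in mouse 5 to 0.20 in mouse 2, with a limma 95% interval of the mean from -0.30 to 0.14. Tpsb2 was blank in mouse 1, with an interval from -0.16 to 0.15. Mcpt9, a protease gene of the same cluster as Mcpt2, was blank in mouse 3 and averaged 0.04 ± 0.09 in the other 4 mice. Limma adjusted p-values of these last 3 genes lay between 0.556 and 0.957. Cma1, the chymase gene of connective-tissue mast cells, had values only in mouse 1 (-0.02) and mouse 3 (0.09) and was not tested. These genes are closely related in sequence, and whether their probes share signal was not tested.

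Of the other granzymes, Gzmb passed on the opposite side. Granzyme B triggers apoptosis in target cells, and its log2 ratios were 0.19, 0.17, 0.48 and 0.28 in mice 1, 2, 3 and 5, with a blank in mouse 4. All 4 values were positive, with a mean of 0.28 ± 0.14 (SD, n = 4; 1.21-fold in size; limma adjusted p = 0.0234). The call was lost without mouse 3 (mean 0.21, adjusted p = 0.0745) and without mouse 5 (mean 0.28, adjusted p = 0.0787), when 3 arrays were left (0.0112 to 0.106 over its 14 alternatives). The probe 6 numbers above that of Gzmb had a mean of -3.04, and those 18 and 24 below it, naming Gsta3 and Gstm2, had 0.76 and 0.78, whose part in the ratio of Gzmb was not tested. Gzmm, expressed in NK cells, was between 0.02 and 0.15 in all 5 mice and averaged 0.09 ± 0.07 (limma adjusted p = 0.185). Gzmn ranged from -0.20 in mouse 5 to 0.50 in mouse 4, and Gzmc from -0.10 in mouse 2 to 0.01 in mouse 5. Neither passed (limma adjusted p = 0.625 for Gzmn and 0.549 for Gzmc). Gzmk, a granzyme of memory T cells and the neighbour of Gzma on chromosome 13, had values in mice 1, 2 and 5 only (-0.08, -0.05 and 0.06) and was not tested.

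Perforin lets granzymes into a target cell, and its gene did not pass the test. Prf1 had log2 ratios of 0.11, -0.08, -0.04, 0.10 and 0.07 in mice 1 to 5, on both sides of 0, and averaged 0.03 ± 0.09 (SD, n = 5, limma adjusted p = 0.686). The limma 95% interval of its mean ran from -0.08 to 0.14. In mouse 5, where Gzma was at -2.06, Prf1 was at 0.07. Gzma minus Prf1 on the same array lay below 0 in 5 of 5 mice, between -2.13 and -0.23, with a mean of -1.12 ± 0.73. The exact sign-flip p was 0.0625 (0.121 adjusted over the 27 pairs). With 5 arrays 0.0625 is the smallest p possible, so the pair could not pass. Since Gzma itself was negative in all 5 mice, the difference is largely no separate result.

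In all, 3 of the 15 genes passed on the negative side (Mcpt8, Gzma and Tpsg1) and 2 on the positive side (Gzmb and Tpst2), that is 33.3%, where 27.3% of all genes tested passed in either direction. On the negative side 15.0% of all genes passed, and on the positive side 12.3%. The share is thus near that of all genes. Of the 13 proteases and perforin alone, 3 passed on the negative and 1 on the positive side, and 3 had a mean beyond 0.5 in size, as did 612 of the 9727 genes. The median of their means was -0.04, and that of all genes 0.00. Every array with a value lay on 1 side for 6 of these 13, 4 negative and 2 positive, beside 40.1% of all genes (20.9% negative and 19.2% positive). Of the sulfotransferase genes, Tpst2 passed at 0.32 ± 0.23 (SD, n = 5, limma adjusted p = 0.0255), with 0.65 in mouse 2 and 0.14 in mouse 3. Its call was lost without mouse 2 (mean 0.23, adjusted p = 0.0571) and without mouse 5 (mean 0.28, adjusted p = 0.0918; 0.0134 to 0.116 over its 15 alternatives). Tpst1 had 0.13 ± 0.09 (n = 4) and did not pass (adjusted p = 0.138).

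Mcpt8 and Gzma were then set against each of the other measured genes on the same array. Their means were the most negative of the measured genes, so lying below most others follows largely from that and is no separate result. The smallest two-sided p of the exact sign-flip test is 0.0625 for 5 arrays and 0.125 for 4, so no pair could pass. Mcpt8 lay below the other gene in every shared array for 12 of its 14 pairs, the exceptions being Gzma and Tpsg1. The difference of Mcpt8 from Tpsg1 was -0.67 ± 0.73, and it was 0.25 in mouse 2, where Tpsg1 was the more negative. Gzma lay below the other gene in every shared array for 12 of its 13 further pairs, the exception being Tpsg1 (-0.56 ± 0.60), where mouse 4 gave 0.11. Mcpt8 minus Cpa3 averaged -0.90 ± 0.62 and Mcpt8 minus Tpsab1 -1.11 ± 0.39 (SD, n = 5 each). Gzma minus Gzmb averaged -1.60 ± 0.70 (n = 4). Adjusted over the 27 pairs, the exact p was 0.121 for the differences from Cpa3 and Tpsab1, and 0.13 for those from Tpsg1 and Gzmb.

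Mcpt8 stands in a cluster of related proteases on chromosome 14 that runs, in the order of the RefSeq annotation, from Cma1 to Gzmb and holds 15 protein-coding genes. Probes named 9 of these genes here, and 7 had values on at least 4 arrays. Of the 7, Mcpt8 alone passed on the negative side, where 15.0% of all genes did. The measured genes next to it in this order, Mcpt9 before it and Gzmn after it, averaged 0.04 ± 0.09 (n = 4) and 0.07 ± 0.28 (n = 5). Gzmb at the far end was positive, and Cma2, a chymase-like gene outside the selection, averaged 0.08 ± 0.03 (limma adjusted p = 0.178). No probe was named here for Mcpt1, Mcpt4 and 4 of the granzyme genes of the cluster.

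**Figure D3:**
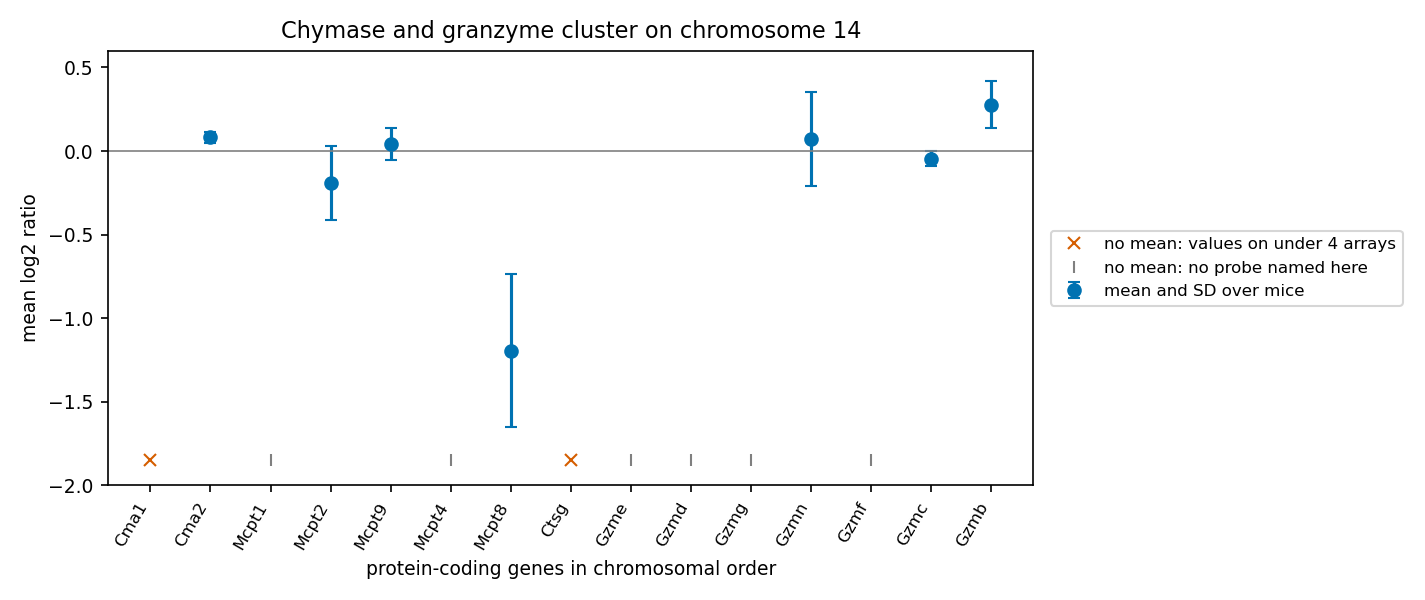
Mean log2 ratio with SD over mice (vertical axis) of the genes of the chromosome 14 protease cluster, placed in chromosomal order and not to scale of distance. Mcpt8 at -1.20 lies apart from the other 6 measured genes, whose means lie between -0.19 and 0.28; marks along the bottom are genes without a mean.

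The genes whose ratios were most like those of Mcpt8 and Gzma were taken as the 5 with the smallest root mean square difference over the 5 arrays, among 8041 other genes with values on all of them. For Mcpt8 these were Gbp2b (0.255), Tex19.2 (0.297), Spc25 (0.318), Psap (0.323) and Iigp1 (0.328), where each number is the root mean square difference in log2 units. Gbp2b, a guanylate-binding protein gene, had -1.38 in mouse 3 and -0.47 in mouse 2, the same extremes as Mcpt8. For Gzma they were Tgtp1 (0.327), Ifi44l (0.333), Oasl1 (0.367), Ifi204 (0.407) and Ncapg (0.412). All 5 had their most negative ratio in mouse 5, as Gzma did, from -1.69 for Tgtp1 to -1.36 for Ncapg. Gzma was more variable than each of them, and of the 5 Oasl1 came nearest to 0 in mouse 4 (-0.19). The call of Oasl1 (mean -0.81) was lost without mouse 3 (limma adjusted p = 0.0523). The root mean square difference between Mcpt8 and Gzma was 0.795. The arrays share the control pool, and the likeness was chosen by value, so it carries no test.

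**Figure D4:**
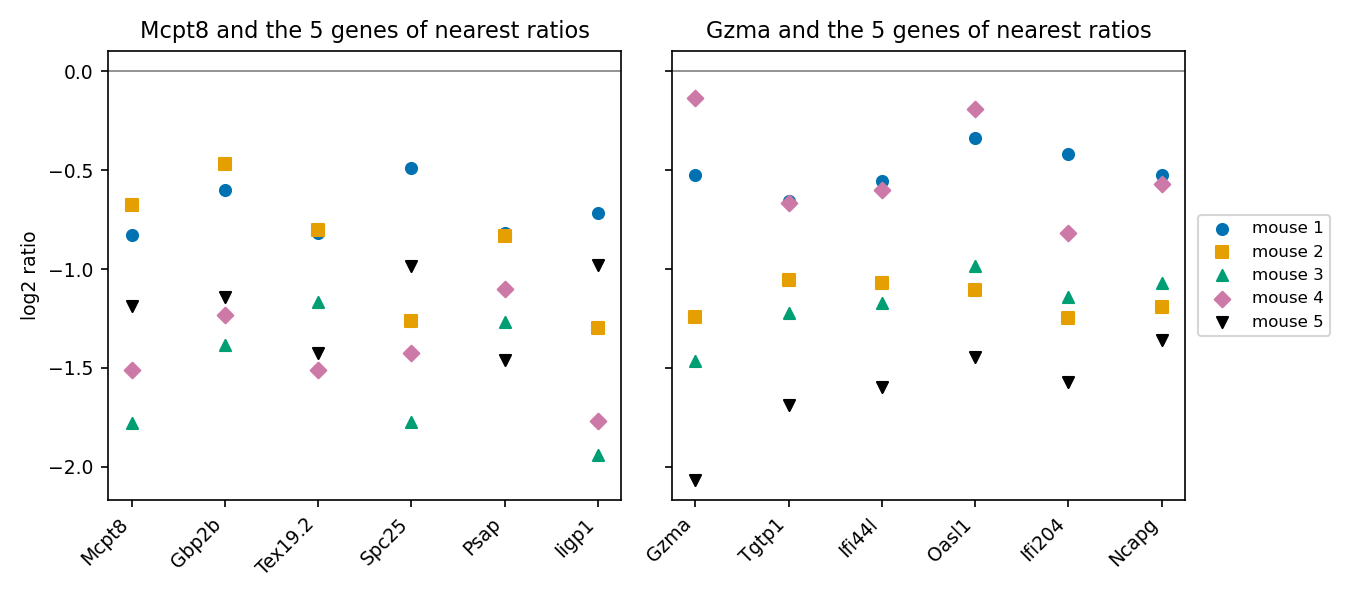
Log2 ratios in each of the 5 mice (symbols) for Mcpt8 and Gzma, each beside the 5 genes with the smallest root mean square difference from it. Mouse 3 is most negative for Mcpt8, mouse 5 for Gzma and for all 5 genes beside it.

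Other genes of mast cells and basophils were measured for 18 of 35 listed. Of these, 6 passed with a negative and 2 with a positive mean, 44.4% against 27.3% of all genes (15.0% negative and 12.3% positive), with a median of -0.13, whereas the median over all genes was 0.00. Lat2, an adaptor of IgE receptor signalling that other leukocytes also use, had -0.91 ± 0.38, and Fcer1g, the signalling chain shared by several Fc receptors, -0.69 ± 0.23 (n = 5 each). The cytokine gene Il6 (-0.83), the receptor gene Csf2rb2 (-0.73) and the leukotriene C4 synthase gene Ltc4s (-0.68) also passed there. Gata2, a transcription factor gene of mast cells and basophils that is also expressed in endothelium, was at 0.62 ± 0.15, with 0.46 to 0.80 in every mouse. Enpp3, a surface enzyme gene of basophils, passed at 0.22 and lost its call without mouse 2, 3, 4 or 5 (limma adjusted p from 0.0577 to 0.113). Kit, the stem cell factor receptor gene that marks mast cells, had 0.04 ± 0.14 and did not pass (limma adjusted p = 0.664). It was 1 of 10 that did not. Others were Cd200r3 (0.07, positive in 5 of 5 mice), Il3ra (-0.11), Mitf (-0.02) and Gata1 (-0.42, negative in 5 of 5 mice). Their limma adjusted p-values were 0.283, 0.182, 0.832 and 0.0839. The IgE receptor genes Fcer1a and Ms4a2 were on the array but had values on fewer than 4 arrays.

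For NK and T cells, 29 of 55 listed genes were measured, of which 8 passed with a negative and 1 with a positive mean, around a median of -0.08. These were 31.0%, near the 27.3% of all genes, and without mouse 5 they were 5 negative and 0 positive (limma). Over all genes, omitting mouse 5 left 928 negative and 671 positive of 10021, against 1463 and 1193 of 9727. The chemokine gene Ccl5 (-0.85 ± 0.45), the inhibitory receptor gene Klrg1 (-0.80 ± 0.48), the adhesion gene Cd2 (-0.54 ± 0.28) and Ctsw, a cathepsin of cytotoxic cells (-0.48 ± 0.21), passed on the side of Gzma (n = 5 each). Ccl5 and Klrg1 were, like Gzma, most negative in mouse 5 (-1.38 and -1.51), and Ccl5 was least negative in mouse 4 (-0.21). Klrg1 was least negative in mouse 1 (-0.21), with -0.57 in mouse 4, and Ctsw was most negative in mouse 3 (-0.71). The receptor gene Cd244a (-0.44, n = 4) lost its call without mouse 3 or 5 (adjusted p of 0.0847 and 0.0652). Il18r1 passed at 0.20 and lost its call without mouse 3, 4 or 5 (limma adjusted p from 0.101 to 0.131). The defining T cell genes Cd3e (-0.15, n = 4) and Cd8a (-0.09) did not pass. The NK genes Klrd1 and Nkg7 had values on fewer than 4 arrays. Other NK genes were measured and were among the 20 of 29 that did not pass. They included Ncr1 (0.01), Klrb1c (0.06), Klra1 (-0.10) and Eomes (-0.21), with limma adjusted p-values of 0.966, 0.482, 0.144 and 0.194. The part of these cell types in the ratios of Gzma and Mcpt8 was not tested.

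Granule proteases need packaging and activation before release. Of 19 measured genes of these steps, 5 passed on the negative and 4 on the positive side, or 47.4% against 27.3% of all genes, with a median of -0.01. Omitting mouse 2 left 3 and 3, omitting mouse 3 left 4 and 2, and omitting mouse 5 left 3 and 2. Over all genes these omissions left 1898, 1678 and 1599 past the threshold, against 2656. Srgn, which encodes serglycin, the granule proteoglycan, had log2 ratios of -0.09, -0.60, -0.26, -0.59 and -0.70 in mice 1 to 5, a mean of -0.45 ± 0.26 (limma adjusted p = 0.0105). Ctsc, the cathepsin C gene whose product removes the activation peptide of granzymes and mast cell chymases, had -0.01, -0.77, -0.86, -1.28 and -1.27, a mean of -0.84 ± 0.52 (adjusted p = 0.00974). Ctsc was near 0 in mouse 1, where Mcpt8 was at -0.83 and Gzma at -0.52. The chaperone gene Calr, which also occurs in cytotoxic granules, passed at -0.95 ± 0.45. On the positive side were the SNARE gene Vamp8 (0.45 ± 0.09) and the heparan sulfate sulfotransferase gene Hs2st1 (0.31 ± 0.05), each with similar values in all 5 mice. The smaller means of Snap23 (-0.26), Canx (-0.21), Stx4a (0.27) and Stx11 (0.15) passed too, but without mouse 5 all 4 were above the threshold, with limma adjusted p-values from 0.0608 to 0.0951. Canx has 2 probes, and the first alone gave -0.10 and did not pass (limma adjusted p = 0.273). Canx lost its call without mouse 1, 2 or 3 as well, Snap23 without mouse 2, Stx4a without mouse 3, and Stx11 without any of the mice.

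Among 9 measured protease inhibitor genes, 2 passed below 0 and 1 above it, a share of 33.3% near the 27.3% of all genes. Slpi, a secreted inhibitor of neutrophil elastase and mast cell chymase, had -1.88 ± 0.32 (n = 5, limma adjusted p = 0.000125), a larger mean than that of any measured granule protease. Serpina3n, whose product inhibits granzyme B in mice, had -1.14 ± 0.39 (limma adjusted p = 0.00133). Serpinb6b, chosen after its values were seen because it is a granzyme A inhibitor in mice, had -0.20 ± 0.17 and did not pass (limma adjusted p = 0.0642). Spint1 passed at 0.15, and its call was lost whichever mouse was left out (limma adjusted p from 0.0711 to 0.0992).

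Of 12 measured genes for granzyme A's SET complex and other substrates and receptors of granule proteases, 4 passed with a negative mean and 0 with a positive one, and 0 were positive at an unadjusted limma p under 0.05. The share was 33.3%, near the 27.3% of all genes, and 2 genes passed without mouse 3, 4 or 5. Over all genes these omissions left 943, 1177 and 928 on the negative side, against 1463. Hmgb2, a chromatin protein of the SET complex and a gene of dividing cells, had -0.92 ± 0.31 (limma adjusted p = 0.00135), while Set (-0.07) and Apex1 (0.01) of the same complex did not pass. The thrombin receptor gene F2r had -0.41 ± 0.20. Mmp9 (-0.35) and Parp1 (-0.21) passed, and each lost its call without mouse 3, 4 or 5 (limma adjusted p up to 0.0914 and 0.078), Parp1 also without mouse 2.

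Of 8 measured neutrophil granule proteases and related genes, 7 passed below 0 and 0 above it, with 0 positive at an unadjusted limma p under 0.05, and a median of -0.47. That was 87.5%, against 15.0% negative and 12.3% positive among all genes, and without mouse 3 or mouse 5 the number was 3. The count over all genes fell too. On the negative side it was 943 of 10267 without mouse 3 and 928 of 10021 without mouse 5, against 1463 of 9727. The 7 included the antimicrobial peptide gene Camp (-1.17 ± 0.72), S100a8 (-1.13 ± 0.33) and S100a9 (-0.73 ± 0.37). Mmp9 was also 1 of the 7, and it is the same gene that was counted among the substrates and receptors above. The myeloperoxidase gene Mpo (-0.50, n = 4) and Prtn3, proteinase 3 (-0.45), lost their calls without mouse 3 or 5 (limma adjusted p up to 0.0644), Mpo also without mouse 2. Elane, neutrophil elastase, had -0.05 and did not pass. Of eosinophil genes, 3 of 5 passed below 0 and 1 above it, and of B cell genes 5 of 7 and 0, with 0 positive at an unadjusted limma p under 0.05. Among all genes 15.0% passed below 0 and 12.3% above it. The median was -0.39 for the eosinophil genes and -0.40 for the B cell genes. The eosinophil genes that passed were Rnase2a (-4.23), Alox15 (-0.96) and Ccr3 (-0.39), with Siglecf at 0.30. Prg2 had -0.14, lay above 0 in 2 of 5 mice and did not pass (limma adjusted p = 0.323). Ccr3 lost its call without mouse 2, 3 or 5, and Siglecf without mouse 1, 2, 3 or 5. The B cell genes were Ighm (-0.55), Cd79a (-0.54), Ms4a1 (-0.44), Blk (-0.40) and Cr2 (-0.28). Cd79a lost its call without mouse 1, 3, 4 or 5, Ms4a1 without mouse 3, 4 or 5, and Blk without mouse 5. Without mouse 2, 3 or 5, 2 eosinophil genes passed, all negative, and the B cell genes numbered 3 without mouse 3 and 2 without mouse 5. Over all genes, 1109 passed on the negative side without mouse 2, 943 without mouse 3 and 928 without mouse 5. The part of these cells in the ratios of the mast cell proteases and granzymes was not tested.

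**Figure D5:**
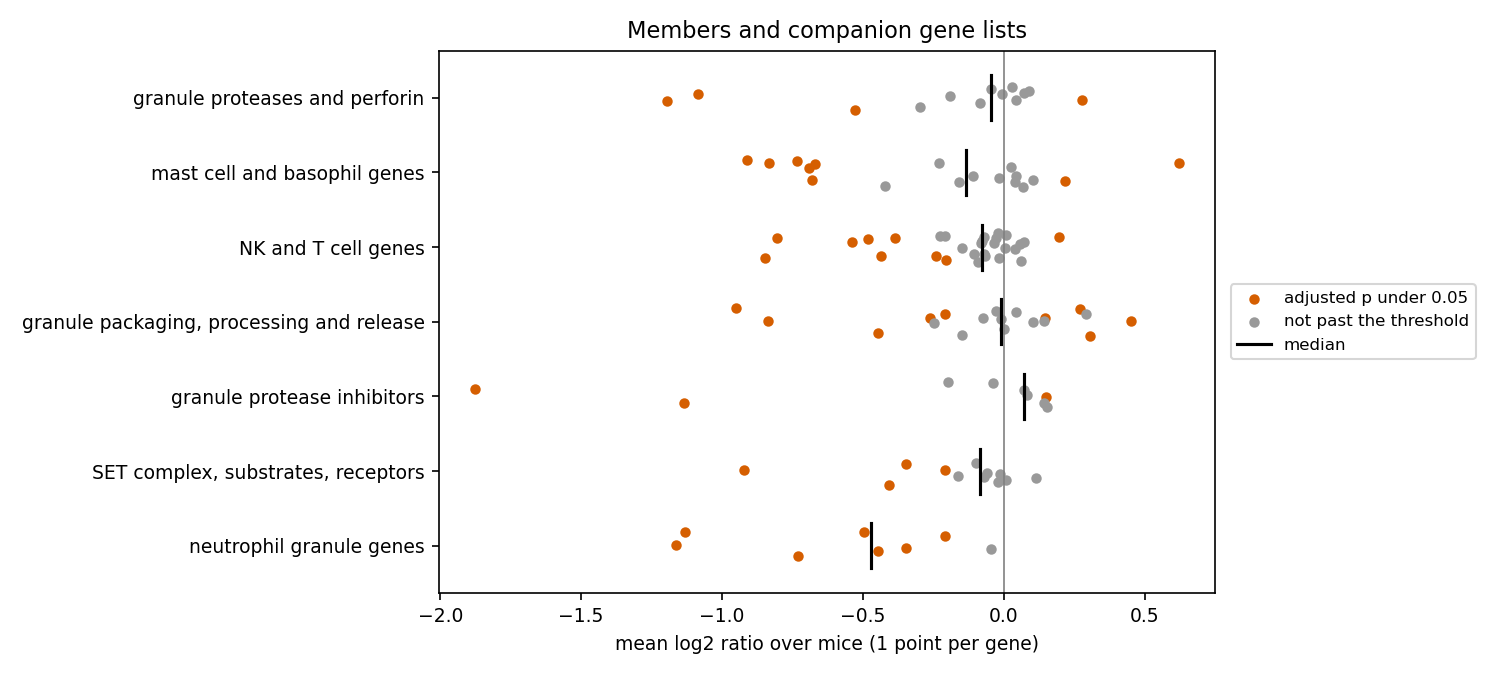
Mean log2 ratio over mice of every measured gene (points) of the proteases with perforin and of 6 companion lists (rows), in orange at an adjusted p under 0.05, with the median of each list as a black bar. Medians of the rows drawn lie within 0.14 of 0 except for the neutrophil granule genes at -0.47. The eosinophil and B cell lists are not drawn, and their medians were -0.39 and -0.40.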

How the data were processed

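The authors deposited 1 table of 17280 probes by 5 arrays, whose values were taken as log2 ratios. Its values are signed, with array medians within 0.015 of 0. The sources used here do not give background correction, within-array normalization, log base, numerator or dyes. Gene symbols came from GEO's platform annotation, in which 14722 probes had 1 symbol, 1 had several and 2557 had none. Identifiers of 14445 matched RefSeq's mouse table (GRCm38.p6), which changed 0 symbols. Each array was centred on its median and the probes naming only 1 gene were averaged. Genes with values on at least 4 arrays were tested against 0 in limma (version 3.58.1, R 4.3.3) by an intercept-only lmFit and eBayes. The two-sided p-values were adjusted by the Benjamini-Hochberg method over 9727 genes and a threshold of 0.05. The fit was tested on simulated data, but no outcome is given here, so this adds nothing to the calls. The pool counts as 1 control sample, so its own spread is left out. The number of arrays limits the precision.

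The members and gene lists were chosen with earlier results of these data known. Named list genes are up to 5 of largest mean on each side among those past the threshold, plus Kit, Fcer1a, Ms4a2, Cd8a, Cd3e, Klrd1, Nkg7, Srgn, Ctsc and, not on the array under that name, Serpinb9. Set, Apex1, Elane and Serpinb6b were named after their values were seen. So were Ncr1, Klrb1c, Klra1, Eomes, Cd200r3, Il3ra, Mitf, Gata1 and Prg2. The lists cover mast cells and basophils, NK and T cells, granule packaging, protease inhibitors, the SET complex with substrates and receptors, neutrophils, eosinophils and B cells. Any pair of arrays shared only 9 to 36 identical values, and none was counted as a duplicate. Alternatives changed the centring, scaling, normalization, filter, probe summary, variance model, array weights, test statistic and mice.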

Additional observations from a re-analysis of the deposited data

Results flagged for a closer look

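Of 71 named genes examined for a mouse far from the others (the gap to the nearest mouse against the whole range, by Dixon's critical values), 2 stood out, or 2.82%, where chance alone gives about 1 in 20. Cpa3 had -0.87 in mouse 5, against -0.26 to -0.07 in the other 4 mice. Parp1 had -0.018 in mouse 1, against -0.27 to -0.24 in the other 4.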

How the results depend on the processing

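No paired analysis was possible because there is 1 group of mice and each was set against the same pool. Mcpt8 kept its side and its call under 14 of 15 alternatives, Gzma its side under 15 and its call under 12. With an ordinary one-sample statistic in place of limma's moderated one, Mcpt8 (-1.20, adjusted p = 0.0529) and Gzma (-1.09, adjusted p = 0.113) lost their calls, as did 45 of the 58 named genes past the threshold. That statistic passed 616 of 9727 genes, 329 negative and 287 positive, against 2656, 1463 and 1193 with limma. It passed 0 negative and 0 positive members, and hence 0 of the members besides Mcpt8 and Gzma, with 3 and 3 at an unadjusted p under 0.05. Requiring values on all 5 arrays left 1 positive member past the threshold and 14 pairs of members on 1 side in every array, against 24, since fewer members were tested. Leaving out 1 mouse at a time gave 1599 to 2553 genes past the threshold, 928 to 1429 negative and 671 to 1124 positive. These fits required values on at least 3 of the 4 remaining arrays, so 9892 to 10367 genes were tested and adjusted over, against 9727. Omitting mouse 3 left 1678 genes, omitting mouse 5 1599, and omitting mouse 2 789 positive ones. The same omissions gave means from -1.33 to -0.84 for Gzma, 2 to 3 negative and 0 to 2 positive members, 0 to 3 of the members besides Mcpt8 and Gzma, and 2 to 5 member probes past the threshold in the fit by probe, against 5. The 0 positive members arose without mouse 5 (limma; 2 at an unadjusted p under 0.05). Mcpt8 minus Gzma ranged from -0.35 (without mouse 5) to 0.21 (without mouse 4, on the other side of 0). Cpa3 passed with the arrays scaled to a common size (limma adjusted p = 0.0487) and after quantile normalization (0.036). Of the named calls, 22 of 58 were lost without at least 1 mouse and 0 changed sign. The list counts without a mouse were added after seeing the data. Without spot brightness, faint and bright probes could not be told apart.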
